A study of Mus musculus with 12 samples.

Results

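The genes described here are the replication-dependent histone genes, the clustered and mostly intronless genes that supply histone protein for newly copied DNA. They were taken as the protein-coding genes whose mouse symbol begins with Hist1h, Hist2h, Hist3h or Hist4h, or has the newer symbol form of the same H1, H2A, H2B, H3 and H4 genes, and no measured value entered that rule. It gave 67 of the 55416 genes counted, of which 6 encode the linker histone H1, 18 encode H2A, 18 encode H2B, 12 encode H3 and 13 encode H4. On the GRCm39 gene models of the files, 54 lie on chromosome 13, 10 on chromosome 3, 2 on chromosome 11 (Hist3h2a and Hist3h2ba) and 1 on chromosome 6 (Hist4h4). A further 3 genes have such a symbol but are pseudogenes and were left out.

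The core histones H2A, H2B, H3 and H4 form the octamer around which DNA is wrapped, and H1 binds the linker DNA between these particles. Their replication-dependent genes are switched on in S phase by the factor Npat, and their transcripts end in a conserved stem-loop, bound by Slbp, in place of a poly(A) tail. Mouse embryonic stem cells divide fast and spend much of the cycle in S phase, and histone supply is commonly read as a companion of DNA replication.

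RNA was sequenced from 12 libraries of mouse embryonic stem cells (ESC) of the Bl/6J line, 3 in each of 4 groups. WT cells carry unchanged Oct4, the pluripotency factor encoded by Pou5f1, and the other line is a single clone, numbered 46, whose Oct4 carries the C48S change of a cysteine to a serine. Undifferentiated cells grew with a MEK inhibitor (1 µM), a GSK3 inhibitor (3 µM) and ascorbic acid, and treated cells were kept for 2 days without leukaemia inhibitory factor in 1.5 mg/L retinoic acid (RA), a signal that drives ESC to differentiate. The design asks how the lines differ in each state and how each responds to RA. Whether RA cultures still held the inhibitors and ascorbic acid is not given in the labels, and the treatment field of some RA libraries names a day other than the 2 in their titles. Nothing in the labels says that the libraries of a group came from separate cultures, so the p-values measure the spread between libraries, which may be technical. The libraries were made by removing ribosomal RNA from total RNA, a method that also captures transcripts without a poly(A) tail. Library totals lay between 8678088 and 13597098 counts. The stem cell markers summed to 6114 to 6462 CPM (counts per 1000000, scaled by TMM) in the undifferentiated libraries, to 455 to 478 CPM in WT RA and to 911 to 957 CPM in C48S RA.

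The stem-loop was the shared sequence of these transcripts. It was searched in the GENCODE M21 transcripts as a stem of 6 paired bases that opens with GG, closed by a loop of 4 bases. It was present in 46 members, against 21 of 21810 other protein-coding genes (0.0963%), and 13 of the members have no annotated 3′ UTR to search. These examples, read 5′ to 3′ with the stem-loop in capitals, are shown because they hold each of the stems found.
Hist1h1c (H1): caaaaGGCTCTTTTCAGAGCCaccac
Hist3h2ba (H2B): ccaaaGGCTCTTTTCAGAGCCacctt
Hist1h4d (H4): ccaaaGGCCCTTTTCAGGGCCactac
Hist1h4b (H4): caaaaGGTCCTTTTCAGGACCactca
The stem of the 34 H1, H2A, H2B and H3 members with a match began GGCTCT in each, whereas 10 H4 members had GGCCCT and 2 had GGTCCT. The match is a description of the sequence and not evidence of processing. Hist2h2be, an H2B member, had no match in its annotated transcripts. The same held for Hist1h2bc, Hist1h2bq and Hist1h2br, H2B members with a long annotated 3′ UTR. Hist1h2be and Hist1h2bh, H2B members whose annotated 3′ UTR is also long, did have a match.

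The upstream sequences separated the families too. RefSeq windows of build GRCm38.p6, from 250 bases before to 50 bases after a start, were found for 62 members and for 27025 genes in all, and were searched on both strands for ATTTGCAT, the octamer that Oct4 and its ubiquitous relative Oct1 recognise, for CCAAT and for TATAAA. The octamer was in 22.6% of the members and in 1.97% of all windows. It was in 7 of 18 H2A and 7 of 16 H2B windows and in no H1, H3 or H4 window. These are not all separate sites, because neighbours transcribed away from each other have overlapping windows. The same octamer was counted for Hist1h2ah and Hist1h2bk, for Hist1h2ae and Hist1h2bg, and for Hist1h2aa and Hist1h2ba. CCAAT was in 85.5% of members and 41.1% of all windows, and the exceptions were all H4 genes, of which 3 of 12 held it. TATAAA was in 56.5% of members and 15.7% of all windows. The 250 bases before the start are shown for members whose levels are described in the families' accounts, with matches to any of the motifs in capitals, read on the gene's strand.
Hist1h2bg (octamer, CCAAT and TATAAA; chr13:23571150-23571399, plus strand): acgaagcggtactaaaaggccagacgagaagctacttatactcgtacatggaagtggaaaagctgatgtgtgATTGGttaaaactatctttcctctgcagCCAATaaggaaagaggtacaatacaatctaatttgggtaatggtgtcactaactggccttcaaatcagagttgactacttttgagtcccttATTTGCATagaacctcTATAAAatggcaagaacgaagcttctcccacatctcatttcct
Hist1h2aa (the stretch shared with Hist1h2ba, which is transcribed the other way; chr13:23934187-23934436, plus strand): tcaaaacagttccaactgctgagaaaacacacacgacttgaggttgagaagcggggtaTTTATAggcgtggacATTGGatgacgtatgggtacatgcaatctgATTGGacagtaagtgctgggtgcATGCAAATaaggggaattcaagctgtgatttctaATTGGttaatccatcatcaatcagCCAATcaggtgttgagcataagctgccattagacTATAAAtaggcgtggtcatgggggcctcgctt
Hist3h2ba (no octamer; chr11:58948661-58948910, plus strand): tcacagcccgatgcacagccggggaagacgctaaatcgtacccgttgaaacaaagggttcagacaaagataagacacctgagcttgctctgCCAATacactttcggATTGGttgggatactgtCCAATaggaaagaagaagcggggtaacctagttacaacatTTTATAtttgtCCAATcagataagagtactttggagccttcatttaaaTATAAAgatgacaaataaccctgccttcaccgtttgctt
Hist1h4i (TATAAA only; chr13:22041363-22041612, minus strand): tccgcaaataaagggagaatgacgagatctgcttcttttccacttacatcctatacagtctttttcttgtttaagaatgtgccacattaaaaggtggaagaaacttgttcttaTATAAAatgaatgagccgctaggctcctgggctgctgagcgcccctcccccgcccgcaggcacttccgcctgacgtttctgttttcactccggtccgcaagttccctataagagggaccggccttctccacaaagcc

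Summed over the members, histone transcripts were more abundant in C48S than in WT in both states. They took 0.719, 0.684 and 0.657% of all counts in the WT undifferentiated libraries, 0.899, 0.918 and 1.14% in C48S undifferentiated, 0.616, 0.634 and 0.628% in WT RA and 0.846, 0.823 and 0.813% in C48S RA. No library of one line reached the range of the other in either state, and the third C48S undifferentiated library stood highest of all. After TMM scaling, which sets libraries to a common level over most genes, the sums were 7800 ± 390 CPM (SD, n = 3) in WT undifferentiated, 10640 ± 1506 CPM in C48S undifferentiated, 5619 ± 80 CPM in WT RA and 7584 ± 196 CPM in C48S RA. In such bulk samples, fewer cells in S phase and less histone RNA per cell cannot be told apart.

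**Figure D1:**
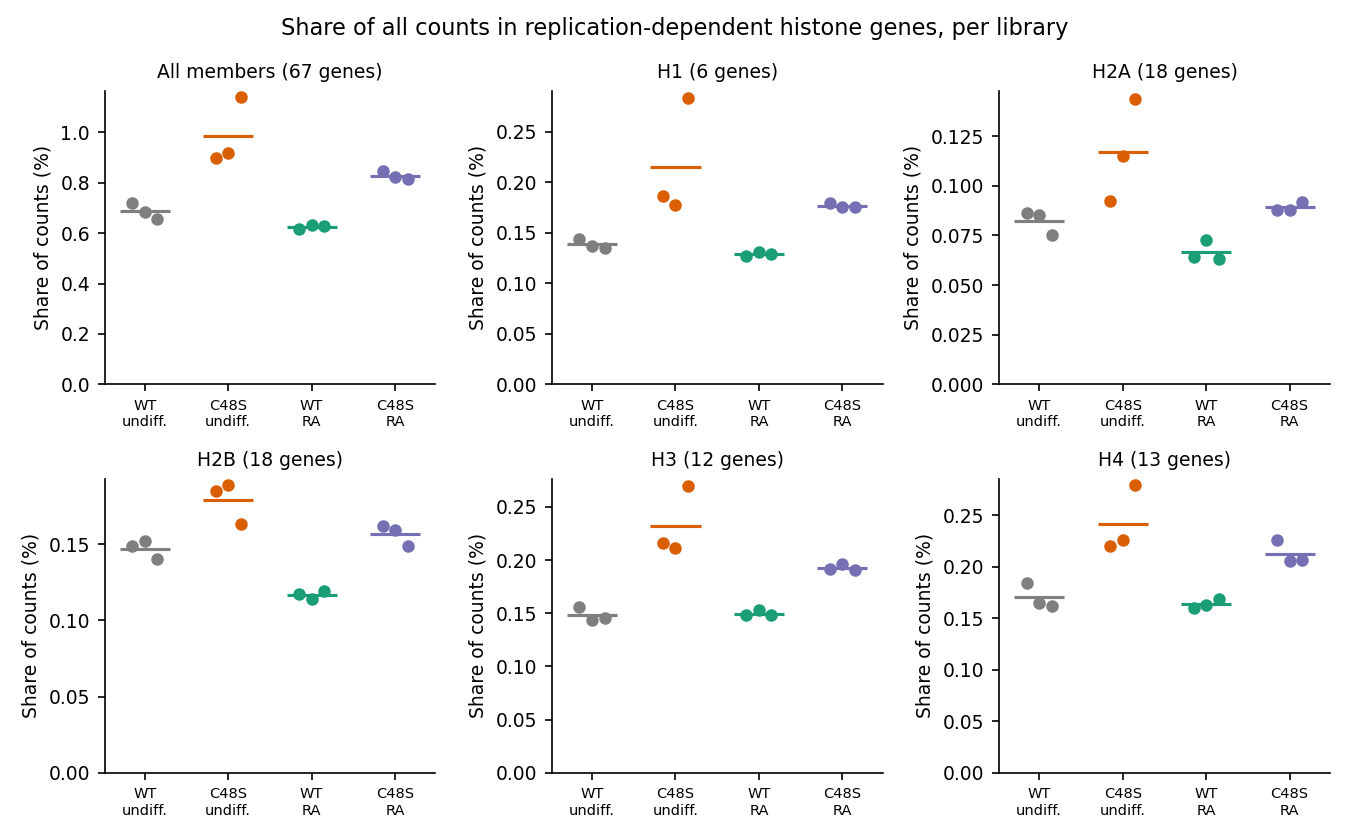
Percent of all counts of a library that fell in the members, for all 67 genes and for each family; points are the 3 libraries of a group and bars their means. The C48S libraries lie above the WT libraries of the same state for the sum of all members, and the third C48S undifferentiated library is highest for every family but H2B.

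Replicate 3 of C48S undifferentiated departed from its group by family. Relative to the mean of the other 2 libraries, its median log2 level was higher by 0.72 over H1, 0.40 over H3, 0.38 over H4 and 0.30 over H2A, and it differed by -0.04 over H2B. All 6 H1 members, 12 of 17 tested H2A, 8 of 11 H3 and 10 of 13 H4 were above both other libraries, but 5 of 18 H2B were above both and 7 were below both. Over all 17940 tested genes the median was 0.00, with 37.3% above both and 38.0% below both. Values without that library are given only for some of the calls and changes that leaving it out moved. A call, or the lack of one, given without such a value may still depend on it. Without it, for example, edgeR's test called Hist2h2ac and Hist1h1c higher in C48S after RA (adjusted p = 2e-15 and 1.02e-23). With all libraries neither was called (adjusted p = 0.0699 and 0.123).

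Changes were tested gene by gene with edgeR's quasi-likelihood test over all 12 libraries, and a change is called where the adjusted p (Benjamini-Hochberg) was under 0.05 over the 17940 genes tested. Fitted log2 fold changes are given with their standard error (SE). Of the 67 members 65 were tested. Hist2h2aa1 had no more than 1 count in any library and Hist2h3c1 had none, and both share their sequence almost entirely with other genes.

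Before RA, 34 of the 65 tested members were called higher in C48S than in WT and 2 lower (Hist1h2aa and Hist3h2ba), where 27.5% and 28.1% of all tested genes were. The median log2 change of the members was 0.34, against 0.00 over all genes. In H3 and H4, 8 of 11 and 8 of 13 were higher and 0 lower, with medians of 0.54 and 0.50. H1 had 4 of 6 higher with a median of 0.49. In H2A 7 of 17 were higher and 1 lower (median 0.21), and in H2B 7 of 18 were higher and 1 lower (median 0.23). Against a null of a 1.5-fold change, 1 member was called higher and 0 lower, where 9.33% and 10.8% of all genes were. The lack of such a call does not show that a change was smaller than 1.5-fold. Large fitted changes of called members included 0.99 for Hist2h2ac, which was 0.69 without the third C48S undifferentiated library. The count of lower members rests on single libraries: it was 6 without the third C48S undifferentiated library, 0 without the third WT undifferentiated library, and 1 without the second library of either undifferentiated group or the first WT RA library.

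After RA the order of the lines was the same. In C48S, 37 of 65 were called higher and 1 lower, Hist3h2ba, against 28.8% and 25.7% of all genes, with a median of 0.42 for the members and 0.02 over all genes. H2B then had the highest family median, 0.50, with 10 of 18 higher, and the others lay between 0.38 and 0.44. Without the third C48S undifferentiated library 2 members were called lower. Against a 1.5-fold null 3 were higher and 0 lower, where 7.92% and 8.54% of all genes were. The comparisons before and after RA share no library, but their spread is estimated together over all 12 libraries. The 2 tests are therefore not independent.

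Most members were lower after retinoic acid in both lines. In WT 38 of 65 were called lower and 6 higher, where 37.4% and 40.9% of all genes were, and the median was -0.51 against 0.06 over all genes. In C48S 44 were called lower and 7 higher, where 34.6% and 39.0% of all genes were, and the median was -0.53 against 0.05. The fall was deepest in WT for H2B (11 of 18 lower, median -0.73) and H2A (12 of 17, median -0.65), and shallower for H4 (7 of 13, -0.42), H3 (5 of 11, -0.37) and H1 (3 of 6, -0.28). In C48S the family medians lay closer together, between -0.44 for H4 and -0.58 for H1. Against a 1.5-fold null 14 members were lower and 3 higher in WT (21.4% and 29.1% of all genes) and 8 were lower and 4 higher in C48S (14.0% and 25.2%). When libraries were scaled to their totals instead, the median of all genes moved to 0.40 in WT and 0.28 in C48S, the members' medians were -0.17 and -0.29, and the calls became 28 lower and 9 higher in WT and 27 lower and 8 higher in C48S.

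**Figure D2:**
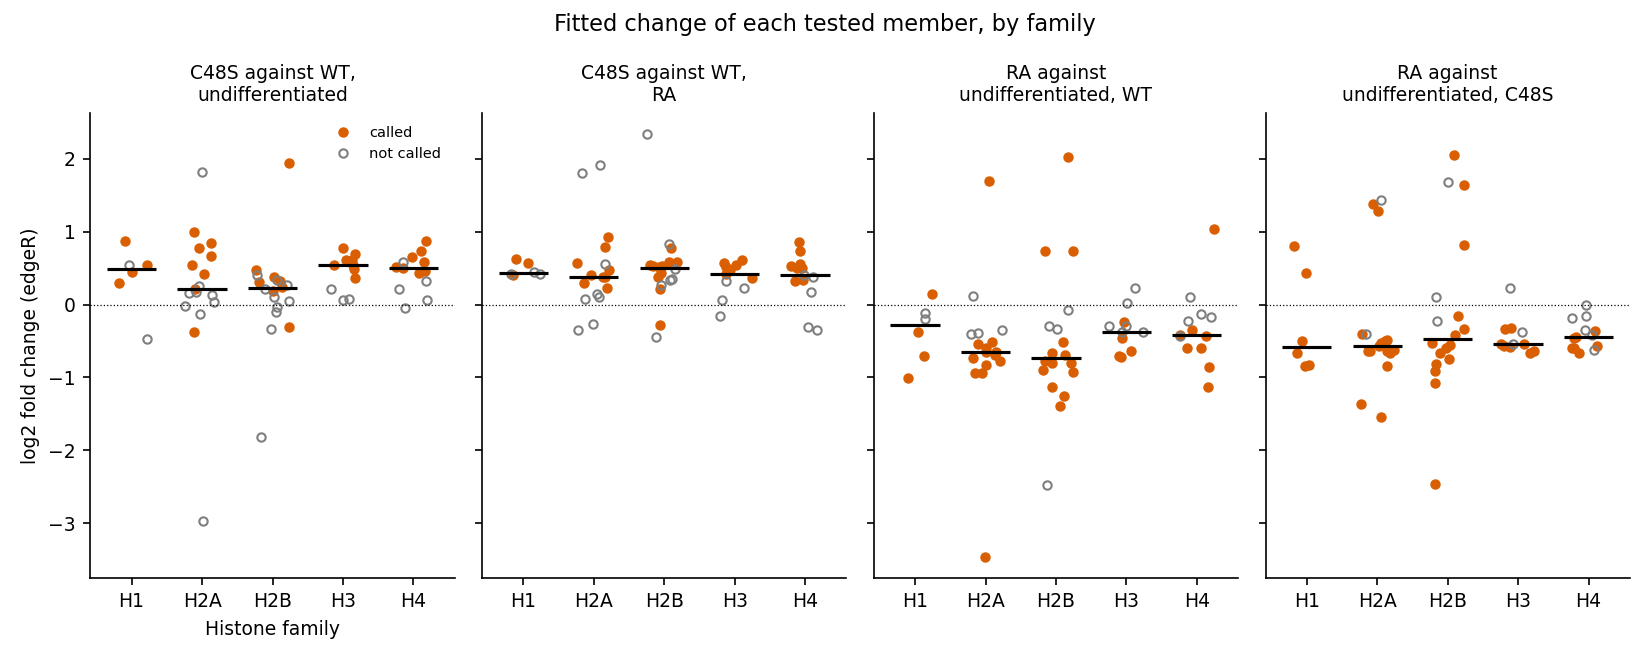
Fitted log2 fold change of each of the 65 tested members, by family, in the 4 comparisons; filled points are called at an adjusted p under 0.05, open points are not, and bars are family medians. Most points lie above 0 for C48S against WT and below 0 for RA, with a few H2A, H2B and H4 members far above the rest after RA.

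The linker histone H1 genes were led by Hist1h1a, which per kilobase of transcript was the second most abundant member before RA, at 638 CPM per kb in WT. Hist1h1a had 483, 484 and 451 CPM in WT undifferentiated, 547, 526 and 997 in C48S undifferentiated, 280, 304 and 283 in WT RA and 383, 390 and 392 in C48S RA. It was higher in every C48S library than in any WT library of the same state, but was not called for that (0.54 ± 0.22, adjusted p = 0.0644 before RA and 0.42 ± 0.22, adjusted p = 0.144 after). Leaving out C48S undifferentiated libraries turned this. Without the third the change before RA was 0.19 and was called (adjusted p = 3.35e-06). That after RA was then 0.42 and was called (adjusted p = 1.43e-24). The change before RA was also called without either other C48S undifferentiated library (adjusted p = 0.0341 at the highest) and with library totals. That after RA was called in a fit of the compared groups alone. It fell with RA in WT by 0.71 on the log2 scale (SE 0.22, adjusted p = 0.0172), a call lost without the first WT RA library (adjusted p = 0.0549) or with library totals (adjusted p = 0.155). In C48S the change was -0.83 ± 0.22 (adjusted p = 0.00813) with all libraries, and -0.46 without the third undifferentiated library (adjusted p = 8.58e-26). The call was lost in a fit of the compared groups alone. Hist1h1b had 333, 312 and 318 CPM in WT undifferentiated, 375, 370 and 570 in C48S undifferentiated, 156, 162 and 160 in WT RA and 246, 249 and 242 in C48S RA. Its groups did not overlap in any of the 4 comparisons, and its fall with RA, -1.01 ± 0.15 (adjusted p = 0.000258) in WT and -0.84 ± 0.15 (adjusted p = 0.000828) in C48S, was the largest of the family in both lines. Hist1h1c, with a larger rise in C48S, had 329, 293 and 290 CPM in WT undifferentiated, 454, 435 and 794 in C48S undifferentiated, 267, 263 and 263 in WT RA and 363, 352 and 349 in C48S RA. The third C48S undifferentiated library was far above the others, and the change before RA was 0.88 ± 0.21 (adjusted p = 0.00622) with it and 0.56 without it, and it was not called in a fit of the compared groups alone. Hist1h1d had 257, 249 and 241 CPM in WT undifferentiated, 354, 333 and 398 in C48S undifferentiated, 187, 202 and 190 in WT RA and 263, 254 and 250 in C48S RA, with even libraries. It was higher in C48S in both states (0.54 ± 0.053, adjusted p = 9.85e-11 and 0.41 ± 0.054, adjusted p = 7.33e-08) and lower after RA in both lines, though with library totals the fall in WT was not called. Hist1h1e rose with RA where the other somatic H1 genes fell or were not called. It had 231, 227 and 215 CPM in WT undifferentiated, 270, 240 and 311 in C48S undifferentiated, 249, 243 and 254 in WT RA and 383, 364 and 357 in C48S RA. The change was 0.15 ± 0.063 (adjusted p = 0.035) in WT and 0.43 ± 0.062 (adjusted p = 9.16e-07) in C48S. The call in WT was lost without any 1 WT undifferentiated library or the third WT RA library (adjusted p from 0.0586 to 0.155). Its annotated span overlaps that of Hist1h2be on the same strand, so read pairs there may be counted to either. Hist1h1t, the testis-type H1, was low, between 1.17 and 5.61 CPM in all libraries. It was called higher with RA in C48S (0.80 ± 0.26, adjusted p = 0.00681) and not in WT (-0.12 ± 0.26, adjusted p = 0.679). The call in C48S was lost without the second C48S undifferentiated library (adjusted p = 0.0961).

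Among H2A genes, Hist1h2ak was the most abundant member of all per length in every group, at 814, 1089, 570 and 754 CPM per kb in WT and then C48S before RA, and in WT and then C48S after it. Its libraries held 357, 322 and 281 CPM in WT undifferentiated, 336, 458 and 490 in C48S undifferentiated, 219, 229 and 223 in WT RA and 286, 296 and 307 in C48S RA. The lines overlapped before RA and did not after it. The difference of 0.42 ± 0.14 (adjusted p = 0.0277) before RA was lost when the second or the third library of either undifferentiated group was left out (adjusted p from 0.0617 to 0.0937), and that of 0.40 ± 0.14 (adjusted p = 0.0345) after RA was lost without any 1 of 8 libraries, among them each RA library (adjusted p from 0.0526 to 0.0921), and with RLE scaling or no low-count filter. Its fall with RA was -0.51 ± 0.14 (adjusted p = 0.00763) in WT and -0.53 ± 0.14 (adjusted p = 0.00655) in C48S, and neither was called when libraries were scaled to their totals (adjusted p = 0.27 and 0.0767). Hist2h2ac had 91.2, 88 and 92.8 CPM in WT undifferentiated, 148, 144 and 249 in C48S undifferentiated, 41.1, 53.6 and 46.7 in WT RA and 67.1, 67.2 and 75 in C48S RA. It was 0.99 higher in C48S before RA on the log2 scale (SE 0.21, adjusted p = 0.00318), and 0.69 without the third C48S undifferentiated library. Hist1h2ai, at a lower level, had 17.8, 16 and 14.5 CPM in WT undifferentiated, 24.9, 23.8 and 34.7 in C48S undifferentiated, 9.64, 9.09 and 9.47 in WT RA and 19.4, 17.7 and 16.6 in C48S RA. No compared groups of it overlapped, and it was higher in C48S by 0.78 ± 0.12 (adjusted p = 1.08e-06) before and 0.93 ± 0.14 (adjusted p = 4.49e-07) after RA. Of its 75-base stretches, 89.3% also occur in another gene, so reads of its copies may be counted to it. Hist2h2ab was low, at 9.12, 5.04 and 5.21 CPM in WT undifferentiated, 8.49, 11.7 and 14.6 in C48S undifferentiated, 6.74, 3.86 and 4.59 in WT RA and 2.69, 3.27 and 5.78 in C48S RA. Its fall with RA was called in C48S (-1.54 ± 0.33, adjusted p = 0.00114) and not in WT (-0.35 ± 0.36, adjusted p = 0.378), and the difference between these changes was not called (-1.19 ± 0.49, adjusted p = 0.0778), but was called with DESeq2, with no low-count filter and without the first library of either undifferentiated group or the third C48S RA library.

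Among H2B genes, Hist2h2bb was the most abundant per length, at 577, 566, 358 and 509 CPM per kb in the same order of groups. It had 221, 227 and 211 CPM in WT undifferentiated, 233, 217 and 197 in C48S undifferentiated, 137, 140 and 132 in WT RA and 204, 188 and 190 in C48S RA. The lines overlapped before RA (-0.03 ± 0.054, adjusted p = 0.695), and after RA each C48S library was above each WT library (0.51 ± 0.055, adjusted p = 8.46e-10). It fell with RA by 0.69 in WT (SE 0.055, adjusted p = 1.41e-13), and the C48S libraries with and without RA overlapped (-0.15 ± 0.054, adjusted p = 0.0104). That last call was lost without the first C48S undifferentiated library or without the second or the third C48S RA library (adjusted p from 0.0516 to 0.147) and with the compared groups alone, and its direction turned with library totals (0.08, adjusted p = 0.172). Of the 75-base stretches of Hist2h2bb, 49.8% are shared, all with the predicted gene Gm42743 that overlaps it, and Gm42743 held 79.7, 84.1 and 80.1 CPM in WT undifferentiated, 87.0, 90.5 and 102 in C48S undifferentiated, 51.1, 58.9 and 56.0 in WT RA and 72.0, 73.3 and 69.0 in C48S RA. Its libraries with and without RA did not overlap in either line, unlike those of Hist2h2bb in C48S. Hist1h2bm, which has an octamer upstream, had 150, 156 and 150 CPM in WT undifferentiated, 209, 202 and 160 in C48S undifferentiated, 63.1, 59.7 and 67.9 in WT RA and 109, 115 and 102 in C48S RA. It fell with RA in both lines, -1.26 ± 0.08 (adjusted p = 4.14e-12) in WT and -0.81 ± 0.075 (adjusted p = 3.27e-09). Hist1h2bc had 166, 165 and 140 CPM in WT undifferentiated, 197, 253 and 207 in C48S undifferentiated, 91, 88.1 and 91.1 in WT RA and 137, 127 and 125 in C48S RA, with no overlap between compared groups. In C48S it was higher than in WT by 0.48 ± 0.08 (adjusted p = 6.23e-05) before RA. Hist1h2bb had 126, 127 and 108 CPM in WT undifferentiated, 168, 158 and 145 in C48S undifferentiated, 69.6, 66 and 72.2 in WT RA and 110, 108 and 93.1 in C48S RA, and was higher in C48S by 0.58 ± 0.07 (adjusted p = 3.39e-08) after RA. Hist1h2bh had 67.5, 69.8 and 33.1 CPM in WT undifferentiated, 49.1, 89 and 81.3 in C48S undifferentiated, 21.2, 21.9 and 22.3 in WT RA and 43.3, 38 and 34.7 in C48S RA, and its WT undifferentiated libraries were uneven, with the last of them lowest. Its fall in WT was -1.39 ± 0.33 (adjusted p = 0.00433). Hist1h2bg, whose upstream sequence is printed above, had 161, 156 and 121 CPM in WT undifferentiated, 164, 183 and 170 in C48S undifferentiated, 99.9, 104 and 104 in WT RA and 123, 121 and 115 in C48S RA. It was higher in C48S in both states (0.24 ± 0.076, adjusted p = 0.0109 and 0.22 ± 0.078, adjusted p = 0.021) and fell with RA by 0.51 in WT and 0.53 in C48S (SE 0.078 and 0.076). The line call before RA was lost without the third library of either undifferentiated group (adjusted p = 0.0966 at the highest), and that after RA without any 1 of 5 libraries, the third C48S undifferentiated one included (adjusted p from 0.0507 to 0.109), and with RLE scaling or DESeq2.

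The H3 genes wrap DNA as part of the central tetramer, and 0 of the 11 tested were called for a difference between the lines in their RA response (39.4% of all genes were). Hist1h3a was called for it without the third C48S undifferentiated library (0.27, adjusted p = 0.00305). Hist1h3g was called for it without the second C48S undifferentiated library (adjusted p = 0.0307). Hist1h3f, the member of the family with the most counts, had 447, 409 and 414 CPM in WT undifferentiated, 592, 569 and 886 in C48S undifferentiated, 327, 326 and 330 in WT RA and 470, 461 and 473 in C48S RA. In C48S it was higher than in WT by 0.69 ± 0.15 (adjusted p = 0.00388) before RA, and by 0.51 ± 0.15 (adjusted p = 0.0184) after RA, a call lost without any 1 WT RA library (adjusted p from 0.0525 to 0.0559). Hist1h3e had 261, 281 and 247 CPM in WT undifferentiated, 419, 397 and 539 in C48S undifferentiated, 253, 304 and 243 in WT RA and 356, 385 and 333 in C48S RA. It was higher in C48S by 0.78 ± 0.13 (adjusted p = 0.000783) before RA, and in WT its libraries with and without RA overlapped. Hist1h3a had 116, 96.9 and 101 CPM in WT undifferentiated, 140, 123 and 178 in C48S undifferentiated, 60.4, 67.3 and 64.7 in WT RA and 94.8, 102 and 97.7 in C48S RA, and Hist1h3i, in the same cluster, had 82.2, 79.7 and 76.9 CPM in WT undifferentiated, 124, 112 and 128 in C48S undifferentiated, 50.2, 49.6 and 54.2 in WT RA and 75.5, 76.8 and 76.6 in C48S RA. Both were higher in C48S in both states and lower after RA in both lines, with no overlap. Hist1h3i fell by 0.63 in WT (SE 0.064, adjusted p = 4.73e-11) and by 0.67 in C48S (SE 0.059, adjusted p = 2.61e-12). Hist1h3h had 71.2, 68.7 and 57.3 CPM in WT undifferentiated, 83.2, 92.1 and 79.8 in C48S undifferentiated, 38.5, 40.1 and 40.9 in WT RA and 62.2, 57.5 and 55.3 in C48S RA, and fell by 0.72 in WT (SE 0.078, adjusted p = 2.82e-10). Hist1h3g, per length the most abundant H3 before RA at 379 CPM per kb in WT, fell by 0.64 in C48S (SE 0.1, adjusted p = 0.000114). Its libraries held 203, 203 and 197 CPM in WT undifferentiated, 268, 253 and 355 in C48S undifferentiated, 150, 142 and 148 in WT RA and 182, 192 and 190 in C48S RA.

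Among H4 genes, Hist1h4d had the most counts, 482, 389 and 397 CPM in WT undifferentiated, 572, 638 and 788 in C48S undifferentiated, 387, 400 and 371 in WT RA and 498, 476 and 495 in C48S RA. In C48S it was higher than in WT before RA (0.66 ± 0.12, adjusted p = 0.00106). The difference after RA, 0.34 ± 0.12 (adjusted p = 0.0345), was lost without the second C48S undifferentiated library or any RA library (adjusted p from 0.0584 to 0.113), and with RLE scaling. Hist2h4, on chromosome 3, had 112, 108 and 101 CPM in WT undifferentiated, 159, 152 and 223 in C48S undifferentiated, 80.8, 80.1 and 76.7 in WT RA and 120, 100 and 116 in C48S RA. It was higher in C48S by 0.73 ± 0.14 (adjusted p = 0.00155) before RA and fell with RA by 0.67 in C48S (SE 0.14, adjusted p = 0.00176). Hist1h4j had 114, 107 and 100 CPM in WT undifferentiated, 144, 148 and 163 in C48S undifferentiated, 70.8, 69.4 and 72 in WT RA and 102, 103 and 95.3 in C48S RA, and fell by 0.60 in each line. Hist1h4c had 255, 238 and 234 CPM in WT undifferentiated, 241, 183 and 277 in C48S undifferentiated, 108, 115 and 110 in WT RA and 239, 154 and 156 in C48S RA. In WT it had the deepest fall of the family (-1.13 ± 0.2, adjusted p = 0.000783), and its first C48S RA library lay inside the range of C48S undifferentiated. In C48S it was higher than in WT after RA by 0.73 ± 0.2 (adjusted p = 0.0149), a call lost without the third WT RA library (adjusted p = 0.0502) or with the compared groups alone. It was 0.48 without the first C48S RA library. Hist4h4, the only member on chromosome 6, had 72, 64.2 and 60.4 CPM in WT undifferentiated, 98, 92.4 and 79.1 in C48S undifferentiated, 54, 44.6 and 49.2 in WT RA and 97.8, 82.1 and 88 in C48S RA. It was higher in C48S by 0.46 ± 0.085 (adjusted p = 6.56e-05) before and 0.86 ± 0.086 (adjusted p = 7.97e-09) after RA. The other protein-coding genes of chromosome 6 had median log2 changes of 0.58 and 0.63 in the same comparisons, whereas those of chromosomes 13 and 3 had medians between -0.01 and 0.07. On chromosome 11 the medians were -0.53 and -0.48, and Hist3h2ba, one of the 2 members there, was lower in C48S by 0.31 (SE 0.13, adjusted p = 0.0406) before and 0.28 (SE 0.085, adjusted p = 0.00546) after RA. Its call before RA was lost without any 1 of 5 libraries (adjusted p from 0.05 to 0.15), with library totals, DESeq2 or no low-count filter and in a fit of the compared groups alone. The part of a chromosome-wide difference in these values was not tested.

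**Figure D3:**
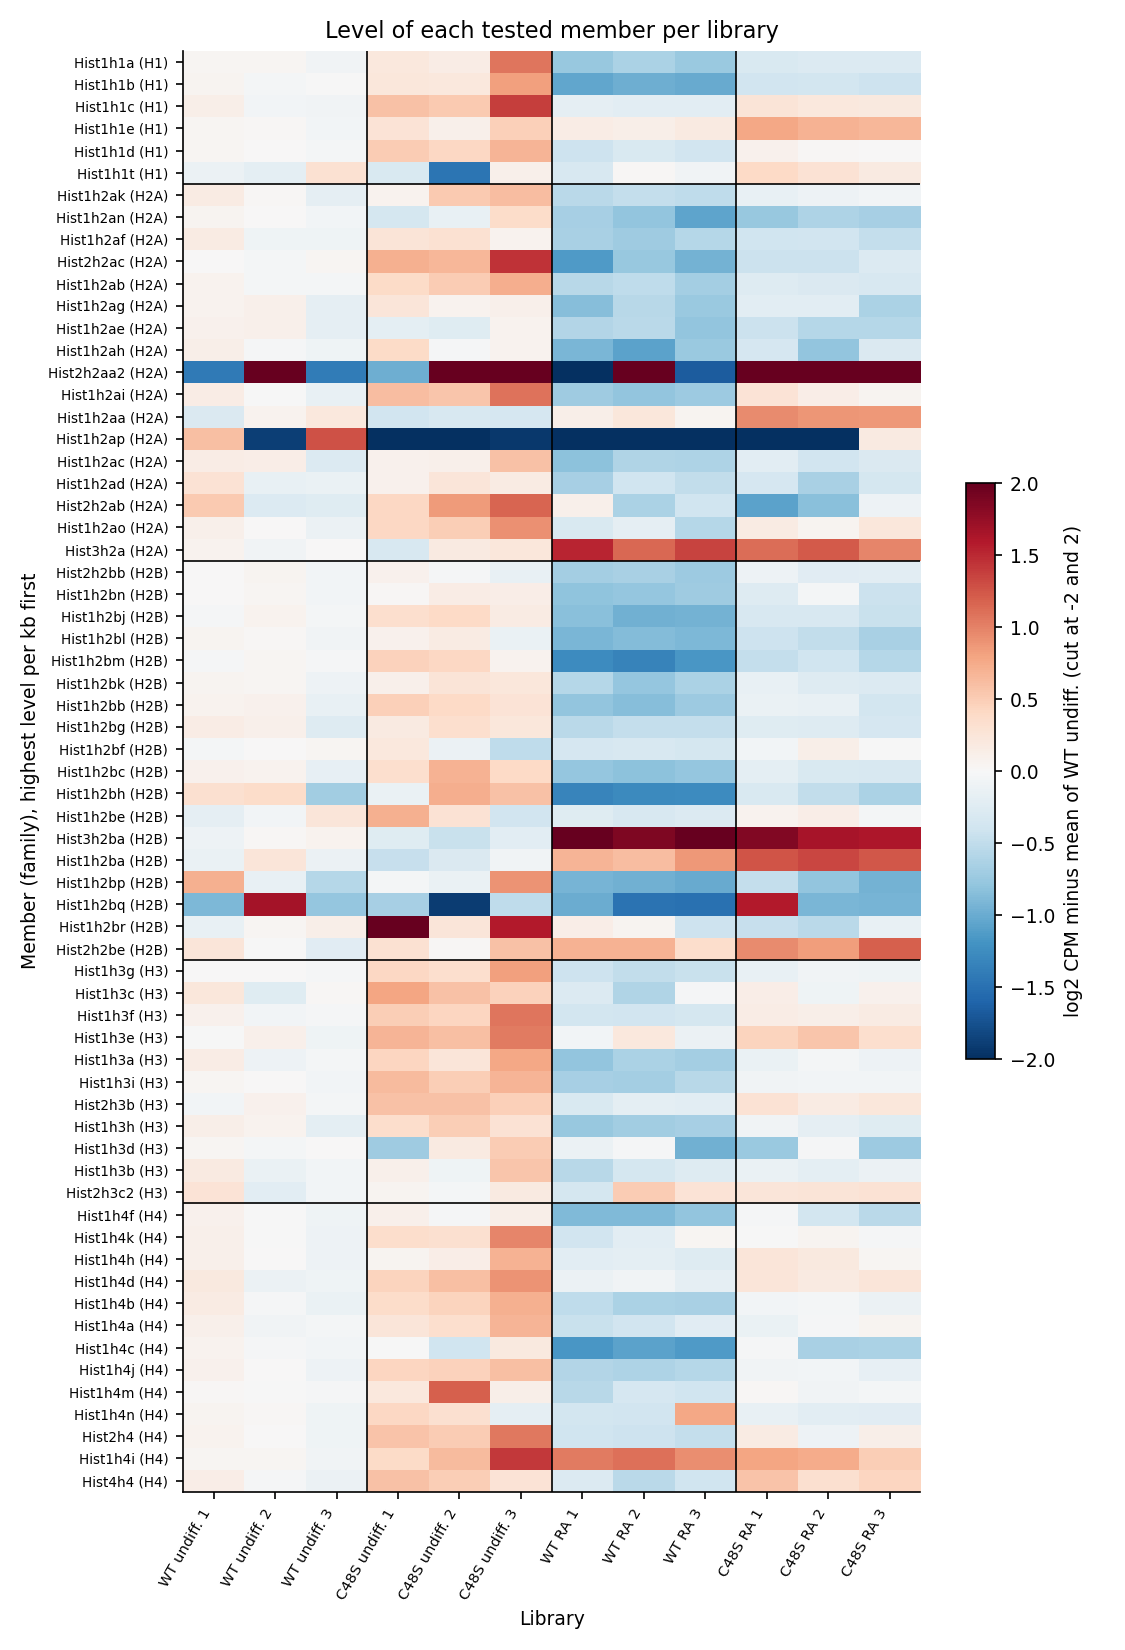
Log2 CPM of each tested member in each of the 12 libraries, minus its mean over the WT undifferentiated libraries, with members sorted by family and by level per kb. Most rows are red in C48S undifferentiated and blue in WT RA; the rows that are red after RA include Hist3h2ba, Hist3h2a, Hist1h2ba, Hist2h2be and Hist1h4i.

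A small set of members rose with RA. The pair on chromosome 11 rose in both lines. Hist3h2ba (newer name H2bu2), a gene outside the large clusters, is a member by its older symbol. Its newer name was also put in the list of replication-independent histones drawn up for context. Hist3h2ba had 10.1, 11.1 and 11.5 CPM in WT undifferentiated, 9.08, 7.88 and 9.31 in C48S undifferentiated, 44.8, 41.1 and 47.9 in WT RA and 40.4, 35 and 34.4 in C48S RA. Its RA and undifferentiated libraries were far apart in both lines, and the rises were 2.03 ± 0.1 (adjusted p = 3.92e-19) in WT and 2.06 ± 0.11 (adjusted p = 1.58e-18) in C48S. Hist3h2a (H2aw) had 1.15, 1.01 and 1.08 CPM in WT undifferentiated, 0.764, 1.28 and 1.34 in C48S undifferentiated, 4.04, 3 and 3.52 in WT RA and 2.92, 3.18 and 2.62 in C48S RA, and rose by 1.69 ± 0.29 (adjusted p = 3.7e-06) and 1.38 ± 0.3 (adjusted p = 9.47e-05). It overlaps Trim17 on the same strand, and Trim17 held 0.168 to 0.524 CPM in WT undifferentiated and 1.46 to 2.07 CPM in WT RA, so read pairs there may be counted to either. Hist2h2be, which has a long 3′ UTR without a stem-loop match, had 1.68, 1.34 and 1.08 CPM in WT undifferentiated, 1.78, 1.39 and 2.28 in C48S undifferentiated, 2.49, 2.49 and 1.86 in WT RA and 3.07, 2.81 and 3.72 in C48S RA. It rose by 0.73 ± 0.31 (adjusted p = 0.0297) and 0.82 ± 0.27 (adjusted p = 0.00674). The call in WT was lost without any 1 of 4 WT libraries (adjusted p from 0.0684 to 0.105) and with DESeq2 or no low-count filter. Its divergent neighbour Hist2h2ac, 239 bases away, fell by 0.94 and 1.37. Hist1h2bc, which also has a long 3′ UTR without a match, changed with RA by -0.80 in WT and -0.75 in C48S.

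**Figure D4:**
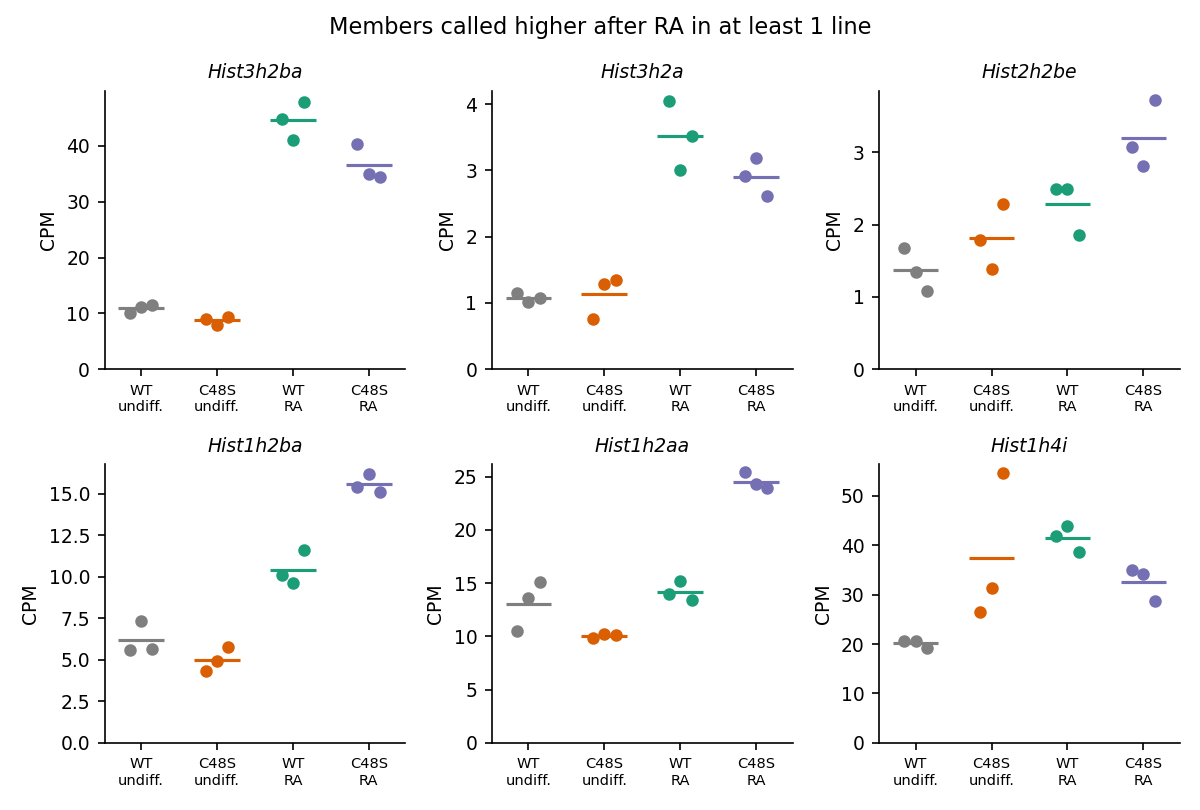
CPM per library of 6 members called higher after RA in at least 1 line; points are libraries and bars group means, on linear axes from 0. Hist3h2ba, Hist3h2a and Hist2h2be are higher after RA in both lines, Hist1h2ba and Hist1h2aa are highest in C48S RA, and Hist1h4i is lowest in WT undifferentiated.

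The RA response differed between the lines for 14 members, by the test of that difference itself: 12 changed upward more, or fell less, in C48S and 2 the reverse, where 22.2% and 17.2% of all tested genes were called. These are 18.5% and 3.08% of the 65 tested, both below the background, and the median difference was 0.03 against 0.02 over all genes. By family the calls were uneven, with 8 of 18 H2B, 3 of 13 H4, 2 of 6 H1, 1 of 17 H2A and 0 of 11 H3. This split changed without the third C48S undifferentiated library. Calls were then gained by Hist1h1a, Hist1h1b and Hist1h1c in H1, Hist1h2ac, Hist1h2ae and Hist1h2an in H2A and Hist1h3a in H3. Their adjusted p was then 0.0332 at the highest. Hist1h2bf in H2B and Hist1h4c and Hist1h4h in H4 also gained a call, and Hist1h4f lost its call. Against a 1.5-fold null 1 was called upward and 0 downward, where 7.61% and 4.97% of all genes were. Without the third C48S undifferentiated library 20 members were called upward, the downward calls numbered 1 to 5 as single libraries were left out, and when libraries were scaled to their totals 5 were called upward and 4 downward. Of the 14, 6 kept their call under every alternative run except the 1.5-fold null: Hist1h2aa, Hist1h2ba, Hist1h2bm, Hist1h2bn, Hist2h2bb and Hist1h4i.

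The first of these form a divergent pair known as the testis-specific H2A and H2B genes, whose start sites lie 306 bases apart. Hist1h2aa had 10.5, 13.6 and 15.1 CPM in WT undifferentiated, 9.84, 10.2 and 10.1 in C48S undifferentiated, 14, 15.2 and 13.4 in WT RA and 25.4, 24.3 and 23.9 in C48S RA. WT libraries with and without RA overlapped, while the C48S libraries did not (1.29 ± 0.12, adjusted p = 4.77e-12), a difference in response of 1.17 ± 0.17 (adjusted p = 6.94e-07). Hist1h2ba had 5.56, 7.31 and 5.64 CPM in WT undifferentiated, 4.33, 4.9 and 5.79 in C48S undifferentiated, 10.1, 9.61 and 11.6 in WT RA and 15.4, 16.2 and 15.1 in C48S RA. It rose in both lines, by 0.74 ± 0.15 (adjusted p = 4.17e-05) in WT and 1.64 ± 0.15 (adjusted p = 3.17e-12) in C48S, a difference of 0.90 ± 0.21 (adjusted p = 0.000835). Hist1h2aa was lower in C48S before RA (-0.38 ± 0.13, adjusted p = 0.0127), a call lost without the second or the third WT undifferentiated library (adjusted p = 0.0998 at the highest), and higher after it (0.79 ± 0.11, adjusted p = 1.59e-07). Hist1h4i went the other way. It had 20.7, 20.7 and 19.1 CPM in WT undifferentiated, 26.4, 31.4 and 54.7 in C48S undifferentiated, 41.8, 43.9 and 38.7 in WT RA and 35, 34.1 and 28.7 in C48S RA. WT cells showed a rise with RA (1.04 ± 0.25, adjusted p = 0.00461), and the C48S libraries overlapped (-0.19 ± 0.24, adjusted p = 0.488), a difference of -1.23 ± 0.35 (adjusted p = 0.0214). Among the C48S undifferentiated libraries the third was highest by far, and the difference was -0.86 without it. Hist1h2bn had 166, 171 and 160 CPM in WT undifferentiated, 168, 184 and 181 in C48S undifferentiated, 94.8, 97.2 and 101 in WT RA and 139, 161 and 123 in C48S RA, and its difference in response was 0.43 ± 0.095 (adjusted p = 0.000678). For Hist2h2bb and Hist1h2bm it was 0.54 (SE 0.077, adjusted p = 5.62e-07) and 0.45 (SE 0.11, adjusted p = 0.00238).

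The members form 13 pairs that are transcribed away from each other from starts within 1000 bases, 12 of which join an H2A and an H2B gene. Of these 12, both genes of 7 were called lower with RA in WT and both of 7 in C48S. Taken singly, 12 of 17 H2A and 11 of 18 H2B genes were lower in WT, against 37.4% of all genes. In C48S 13 of 17 and 12 of 18 were, against 34.6% of all genes. Whether the genes of a pair change together was not tested. Between the lines both genes were called higher in C48S in 0 of the 12 before RA and in 6 after it. Taken singly, 27.5% and 28.8% of all genes were called higher in these comparisons. In the other pair, Hist1h2bh and Hist1h3f, both genes were called lower with RA in C48S, a call that Hist1h2bh lost without any 1 of 4 C48S libraries (adjusted p from 0.0597 to 0.0724). The pair Hist2h2ac and Hist2h2be was called in opposite directions with RA in both lines, and Hist1h2ba and Hist1h2aa were both called higher with RA in C48S. H2A and H2B genes with an octamer had a median change with RA in WT of -0.66 (10 of 14 lower, 2 higher), and those without had -0.73 (12 of 19 lower, 1 higher). Between the lines before RA the medians were 0.22 and 0.21. After RA they were 0.46 (10 of 14 higher, 0 lower) and 0.38 (8 of 19 higher, 1 lower), where 28.8% and 25.7% of all genes were. For the difference in response 5 of 14 were called upward and 0 downward, and 3 of 19 and 1 without an octamer. Of all genes, 22.2% and 17.2% were called for that difference. Members whose annotated transcript runs 500 bases or more past the stem-loop had a median of -0.30 with RA in WT (5 of 11 lower, 2 higher), against -0.59 (14 of 22 lower, 0 higher) where it ends within 100 bases. With RA in C48S these medians lay closer together, at -0.50 (6 of 11 lower, 2 higher) and -0.58 (15 of 22 lower, 0 higher). The octamer and stem-loop sets are described by their counts and were not tested against each other. Of all tested genes, 37.4% were called lower with RA in WT and 40.9% higher, and 34.6% and 39.0% in C48S.

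Several members jumped between libraries of one group. Hist2h2aa2, an H2A gene whose sequence is held in full by its neighbour Hist2h2aa1, had 3.46, 73.6 and 3.47 CPM in WT undifferentiated, 4.84, 111 and 193 in C48S undifferentiated, 1.97, 57.7 and 2.83 in WT RA and 75.9, 77.7 and 76.2 in C48S RA. High and low libraries lay far apart within both WT groups and within C48S undifferentiated, and no change of it was called. Hist1h2ap had 12.7, 1.85 and 20.4 CPM in WT undifferentiated, 1.19, 1.39 and 1.76 in C48S undifferentiated, 0.622, 1.37 and 0.977 in WT RA and 0.538, 1.5 and 9.35 in C48S RA. Its fall with RA in WT was called (-3.46 ± 1.2, adjusted p = 0.0288), with high values in the first and the third WT undifferentiated libraries. That call was lost without either of them or any 1 WT RA library (adjusted p from 0.0602 to 0.0944), in a fit of the compared groups alone and with no low-count filter. Hist1h2bq had 1.15, 9.15 and 1.3 CPM in WT undifferentiated, 1.44, 0.32 and 1.65 in C48S undifferentiated, 1.04, 0.6 and 0.586 in WT RA and 8.68, 1.12 and 1.11 in C48S RA. Hist1h2br, a near copy of Hist1h2bq with 87.6% of its 75-base stretches found elsewhere, had 1.26, 1.51 and 1.63 CPM in WT undifferentiated, 9.33, 1.81 and 5.38 in C48S undifferentiated, 1.66, 1.54 and 0.977 in WT RA and 0.922, 0.842 and 1.27 in C48S RA. It carries the largest called rise in C48S before RA (1.94 ± 0.45, adjusted p = 0.0017), a called fall with RA in C48S (-2.46 ± 0.46, adjusted p = 0.00019) and a called difference in response (-2.39 ± 0.75, adjusted p = 0.0197), which was lost without any 1 of 6 libraries (adjusted p from 0.0538 to 0.0701). Of the C48S undifferentiated libraries the first and the third stood far above every other library and the second did not. The first of the C48S undifferentiated libraries was lowest for Hist1h3d (97.9, 182 and 228 CPM) and highest for Hist1h3c (377, 328 and 301 CPM), which varied less. These 2 genes share only 22.1% and 36.2% of their 75-base stretches with other genes, each mostly with Hist1h3b. Near-copies make the split of read pairs between genes such as Hist1h2bq and Hist1h2br uncertain, and 28 of the 67 members share 50% or more of their 75-base stretches with another gene. Among the 39 that share less, 22 were higher in C48S before RA and 23 after, 23 were lower after RA in WT and 26 in C48S, with medians of 0.40, 0.45, -0.43 and -0.53.

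**Figure D5:**
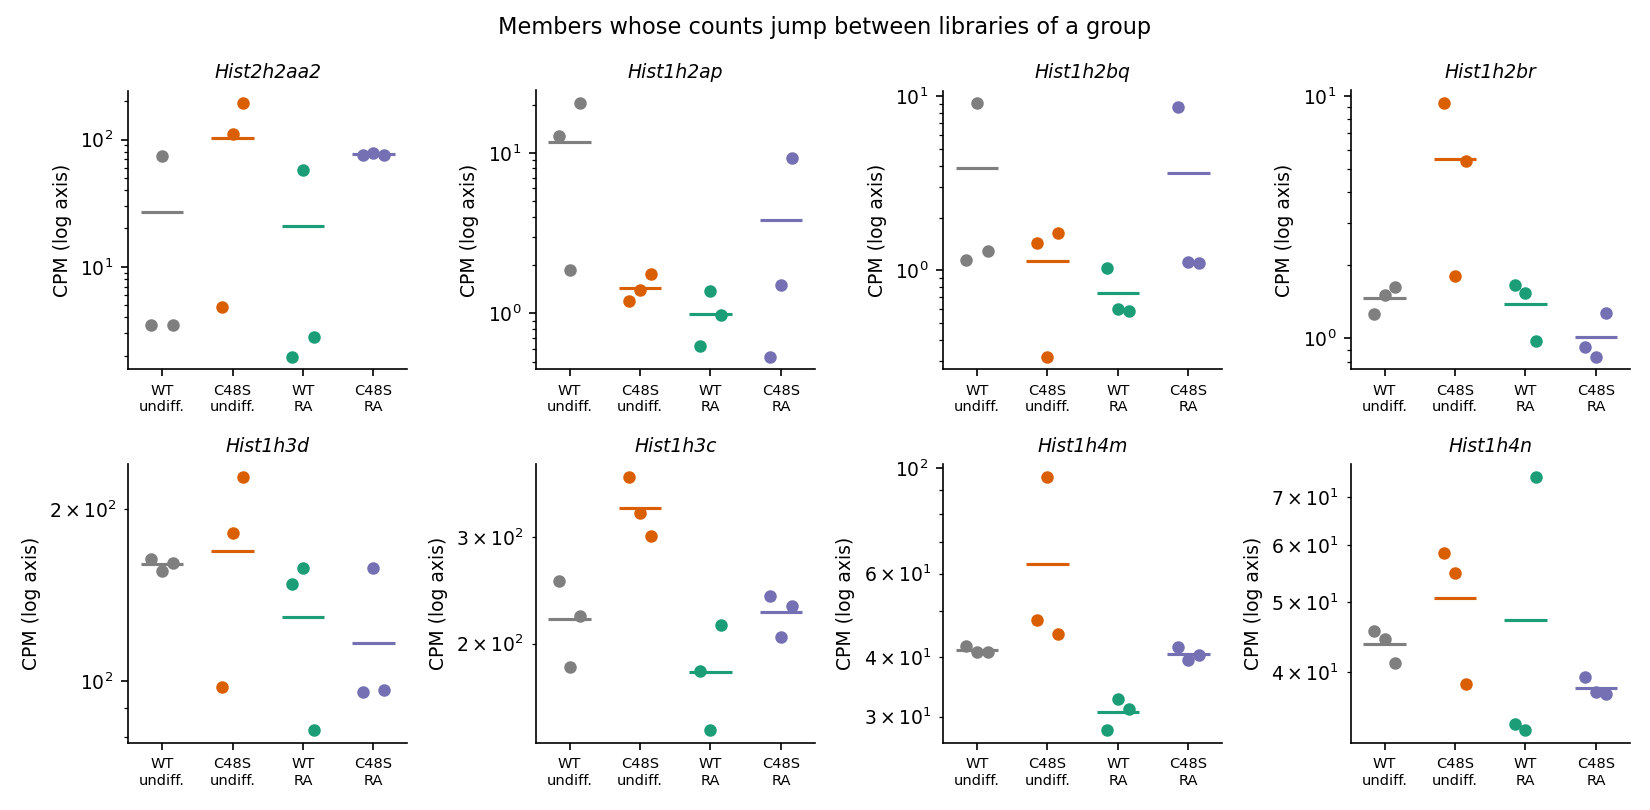
CPM per library, on log axes, of 8 members shown for uneven libraries within a group. Points are libraries and bars group means. In Hist2h2aa2, for example, the WT undifferentiated libraries lie at 3.46, 73.6 and 3.47 CPM.

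The genes that act around histone supply gave a mixed picture between the lines and a common one for RA. Of 48 S phase and replication genes, 42 fell and 3 rose with RA in WT (median -0.78), and 44 fell and 1 rose in C48S (median -0.66), where 37.4% of all genes were lower and 40.9% higher in WT and 34.6% and 39.0% in C48S. Among them were the helicase subunit Mcm2 (-1.78 ± 0.045, adjusted p = 3.95e-28 and -0.91 ± 0.043, adjusted p = 8.93e-20) and the ribonucleotide reductase subunit Rrm2 (-1.31 ± 0.049, adjusted p = 1.13e-22 in C48S). Between the lines 23 were higher and 15 lower in C48S before RA (median 0.12, against 27.5% and 28.1% of all genes), and 26 and 10 after (median 0.16, against 28.8% and 25.7%), with Rrm2 0.66 ± 0.048 (adjusted p = 3.88e-14) higher before RA. Of 31 factors of histone gene expression, 24 fell and 4 rose with RA in each line, while before RA 9 were higher and 14 lower in C48S. Slbp, which binds the stem-loop, was higher in C48S before RA (0.69 ± 0.063, adjusted p = 1.36e-11), as was Upf1, which takes part in histone mRNA decay (0.78 ± 0.048, adjusted p = 6.23e-16), and Coil, the scaffold of Cajal bodies, was lower (-0.89 ± 0.052, adjusted p = 8.15e-17). The part of chromosome-wide differences between the lines in the values of these factors was not tested. Of 32 histone chaperones and deposition factors, 23 fell and 3 rose in WT and 27 fell and 3 rose in C48S, led in WT by Set (-2.26 ± 0.046, adjusted p = 1.3e-30). The replication-independent histones, whose supply is not tied to S phase, divided. Of 11 tested, 5 fell and 3 rose with RA in WT. There the H2A.Z gene H2afz was lower (-1.95 ± 0.058, adjusted p = 2.62e-25). The linker histone gene H1f0, known from non-dividing cells, was higher (1.47 ± 0.077, adjusted p = 1.21e-18). Between the lines H2afy, which encodes macroH2A, was higher in C48S in both states (1.15 ± 0.057, adjusted p = 9.45e-19 and 0.98 ± 0.057, adjusted p = 1.39e-16). Of 20 mitosis genes, 14 fell and 2 rose with RA in WT and 10 fell and 6 rose in C48S.

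Other measures did not all move with the histone sums, which were lower after RA in both lines. Other transcripts without a poly(A) tail summed to 5597 to 6233 CPM in WT undifferentiated, 7035 to 8494 CPM in C48S undifferentiated, 6912 to 7565 CPM in WT RA and 8844 to 8983 CPM in C48S RA. Malat1 leads these sums, which did not overlap between compared groups and were higher in C48S and higher after RA. The calls were fewer: 2 of 4 tested were higher and 1 lower in C48S before RA, 1 higher and 0 lower after RA, 3 higher and 0 lower with RA in WT, and 2 higher and 1 lower with RA in C48S. Malat1 itself was called higher in C48S in both states (0.75 ± 0.071, adjusted p = 1.17e-07 and 0.37 ± 0.07, adjusted p = 0.000284) and Neat1 before RA (1.13 ± 0.18, adjusted p = 0.000668), while Rmrp was called lower before RA (-1.35 ± 0.38, adjusted p = 0.0028). Markers of fibroblasts or feeder cells, of which 16 of 16 were tested, summed to 3293 to 3466 CPM in WT undifferentiated, 3129 to 4008 in C48S undifferentiated, 1704 to 1840 in WT RA and 2598 to 2792 in C48S RA. The calls did not follow the sums: with RA 10 were called higher and 6 lower in WT (median 0.84) and 8 and 8 in C48S (median -0.01). In C48S against WT 8 were higher and 5 lower before RA (median 0.35) and 4 and 7 after it (median -0.05). The part of either in the histone results was not tested.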

How the data were processed

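RNA-seq read pairs of 12 libraries had been counted per gene, and the deposited values are raw counts with no normalization. Per the file headers, the authors used featureCounts 1.6.3 with the strand option at 2 and the Ensembl release 104 models of GRCm39. Per the submitters' processing notes, STAR 2.7.9a and DESeq2 were among the tools and mm39 was the build. Symbols and biotypes were matched by identifier to GENCODE M21, which named 52135 of 55416 identifiers (94.1%). Upstream sequences are from RefSeq, and transcripts for the stem-loop and the shared 75-base stretches from GENCODE M21, both on the preceding build.

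The fit used edgeR 4.0.16 under R 4.3.3 (filterByExpr with a minimum count of 10, TMM scaling, a robust quasi-likelihood fit over all 4 groups, 8 residual degrees of freedom, Benjamini-Hochberg adjustment over 17940 genes). CPM uses the TMM-scaled totals. The procedure was tested on simulated counts. The members and lists were chosen with earlier results of these data known. Any member could be named. The rule for values by library took, in each comparison and family, the member with the highest level and up to 2 called members with the largest change, if the groups did not overlap and the higher reached 1 CPM, and all members outside chromosomes 13 and 3. Members given by library beyond that rule were chosen after their values were seen. Of each context list up to 4 members with the smallest adjusted p could be named, or every called member where there were at most 5. Same-numbered libraries did not deviate together (correlations from -0.0529 to 0.029), and the test has no replicate block. Alternatives were RLE scaling, TMM without the members, a DESeq2 1.42.0 fit, no filter or 1 CPM in 3 libraries as the filter, only protein-coding genes, the compared groups alone, a 1.5-fold null, the replicate block and each library left out. Scaling to library totals and a count over members with under 50% shared stretches were added after seeing the data. With 8678088 to 13597098 counts per library, members near 1 CPM rest on few counts.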

Additional observations from a re-analysis of the deposited data

Results flagged for a closer look

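The RA response differed between the lines for 14 members, by edgeR's test of the difference between the RA change in C48S and that in WT (adjusted p under 0.05). On the log2 scale the difference was 1.17 for Hist1h2aa, 0.90 for Hist1h2ba, 0.54 for Hist2h2bb, 0.45 for Hist1h2bm and 0.43 for Hist1h2bn, all of which fell less or rose more in C48S and kept the call under every alternative run except the 1.5-fold null. Hist1h4i, with -1.23, kept it too. The other members were called with 0.28 (Hist1h1e), 0.92 (Hist1h1t), 0.33 (Hist1h2bl), 0.24 (Hist1h2bk), 0.24 (Hist1h2bj), 0.50 (Hist1h4f), 0.41 (Hist4h4) and -2.39 (Hist1h2br), and each of these 8 lost the call under at least 1 alternative. Groups of 3 libraries are too small for a test of single outlying libraries.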

How the results depend on the processing

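All counts are of members called at an adjusted p under 0.05, higher then lower. With the replicate number as a block they were 33 and 3 for C48S against WT before RA, 34 and 1 after RA, 6 and 38 for RA in WT, 7 and 44 for RA in C48S, and 13 and 2 for the difference in response, each within 1.5 times the value without it. Of the named members' calls, the block ended those of Hist1h2ak between the lines before RA (adjusted p = 0.0544) and after RA (adjusted p = 0.0604) and that of Hist1h4d after RA (adjusted p = 0.0634). Of the 12 libraries 5 lay closest to libraries of their own number (same-number correlations from -0.0529 to 0.029), so the numbers were not read as a pairing. DESeq2 gave 33 and 2, 37 and 1, 5 and 40, 7 and 45, and 12 and 3. Fits of the compared groups alone gave 1 lower before RA and 2 lower after RA, and no low-count filter gave 1 lower before RA. Against a 1.5-fold null the counts were 1 and 0, 3 and 0, 3 and 14, 4 and 8, and 1 and 0. The next alternatives were chosen after seeing the data. Scaling to library totals gave 1 lower before RA (median 0.42), a median of -0.17 for RA in WT, 27 lower for RA in C48S (median -0.29), 5 and 4 for the difference in response (median -0.08), and turned Hist2h2bb with RA in C48S to 0.08. The 39 tested members with under 50% shared stretches gave 22 higher before RA (median 0.40), 23 higher after RA, 23 lower for RA in WT (median -0.43), 26 lower for RA in C48S, and 1 lower for the difference, and part of these smaller counts follows from fewer members. Without the members that overlap another gene or lie on chromosomes 6 or 11, 58 were left, with 1 lower before RA, 0 lower after RA, 3 higher for RA in WT and 4 in C48S. The mean share of counts in the members was 0.780% in WT undifferentiated, 0.562% in WT RA and 0.758% in C48S RA after TMM scaling, and 0.658% in WT RA and 0.861% in C48S RA of protein-coding counts. As single libraries were left out, C48S against WT ranged from 26 to 38 higher and 0 to 6 lower before RA (median 0.29 to 0.42) and from 28 to 42 and 1 to 2 after RA (0.39 to 0.46). RA gave 4 to 6 higher and 34 to 43 lower in WT (-0.61 to -0.45) and 6 to 8 and 37 to 46 in C48S (-0.55 to -0.41), and the difference in response 8 to 20 and 1 to 5 (-0.06 to 0.14). Of 66 called results of named members, 43 kept the call under every alternative run for them other than the 1.5-fold null (21, or 20 for the difference in response). Unless stated, the cause of a change was not tested. Depth limits the members near 1 CPM.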

Other observations

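Pseudogenes with a histone symbol, which the rule left out, were counted too. Hist3h2bb-ps, on chromosome 11 like Hist3h2ba and Hist3h2a, had 8.49, 9.66 and 8.57 CPM in WT undifferentiated, 6.62, 7.14 and 5.69 in C48S undifferentiated, 17.7, 16.3 and 16.9 in WT RA and 13.5, 13.7 and 13.7 in C48S RA. It rose with RA in both lines by edgeR's test (0.92 ± 0.12 SE, adjusted p = 2.08e-08 in WT and 1.07 ± 0.13, adjusted p = 4.76e-09 in C48S) and was lower in C48S in both states (-0.46 ± 0.14, adjusted p = 0.00563 and -0.31 ± 0.11, adjusted p = 0.0159). Protein-coding genes of chromosome 11 outside the members had median log2 changes of -0.53 and -0.48 between the lines. The part of that difference was not tested. Hist1h2aj jumped between libraries of a group, with 0.734, 1.68 and 28.6 CPM in WT undifferentiated and 62.8, 11.7 and 21.8 in C48S undifferentiated, and no change of it was called. Hist1h2al had at most 4 counts in any library and was not tested.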
